A study of Mus musculus with 17 samples.

Results

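Lungs of mice that carried a tumor and had no treatment (tumor_untreated, 4 libraries) were set against lungs of tumor-free mice that had received IL12-GEMy cells (naive_GEMy, 4 libraries). These are 8 of the 17 libraries of the series. The genes compared were those with a value of at least 0.5 FPKM in at least 4 of the 16 lung libraries, which kept 10284 of 18262 listed genes. FPKM are fragments per 1000 bases of gene and per 1000000 assigned fragments, and in these files the length is the genomic span of the gene with its introns. All mice were of strain C57BL/6, and the labels give neither age nor sex. The tumors were started in the leg, from 500000 M3-9-M cells placed in the gastrocnemius. M3-9-M is a mouse rhabdomyosarcoma line, here carrying firefly luciferase and mCherry, and the lungs were taken 15 days after inoculation. IL12-GEMy are myeloid cells grown from bone marrow and engineered with a lentivirus to secrete interleukin-12 (IL-12). The naive_GEMy mice received 8000000 of them intravenously and lungs were taken 3 days later. The labels name no vehicle for untreated mice, and they do not say whether tumor cells had reached the lungs. Lungs without tumor or cells (naive_untreated, 4 libraries) are given as the reference level, and 1 library of the injected cells as the level in the product. Lungs of mice with both (tumor_GEMy, 4 libraries) enter the minimum and the estimate of the spread. These mice had 500000 tumor cells and, 12 days later, 8000000 IL12-GEMy. Their lungs were taken 15 days after the tumor cells, 3 days after IL12-GEMy. The study title concerns the pre-metastatic niche of the lung, a state of the organ ahead of the arrival of tumor cells.

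IL-12 acts on T cells and natural killer (NK) cells, which answer with interferon-gamma. Interferon-gamma acts through gamma-activated sites (GAS) near genes for guanylate-binding proteins, immunity-related GTPases, antigen presentation and the checkpoint ligand PD-L1. Tumors can instead act on the lung from a distance through bone marrow, from which neutrophils are released that carry the proteins S100A8 and S100A9. Granzymes are the proteases that NK cells and cytotoxic T cells deliver into target cells through pores of perforin.

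Promoter windows of 4 GTPase genes and of Gbp7, all higher in naive_GEMy, are shown first because they hold sites that this pathway is known to use. The upstream windows of Cd274 and Ifi47, also higher in naive_GEMy, held neither site. The sequences are from RefSeq (GRCm38.p6), 5′ to 3′ on the strand of the gene. Capitals mark a GAS (TTCNNNGAA) and an interferon-stimulated response element (ISRE, here 2 copies of GAAA with 2 bases between them, or of TTTC when it lies on the other strand), and a GAS can share its closing GAA with the opening of an ISRE.
Igtp, chr11:58199501-58199541, plus strand: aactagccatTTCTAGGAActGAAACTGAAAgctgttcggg
Irgm2, chr11:58214892-58214932, plus strand: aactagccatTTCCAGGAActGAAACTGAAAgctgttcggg
Tgtp1, chr11:48992304-48992344, minus strand: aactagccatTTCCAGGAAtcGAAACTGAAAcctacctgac
Tgtp2, chr11:49064263-49064303, minus strand: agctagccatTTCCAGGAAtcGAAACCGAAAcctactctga
Gbp7, chr3:142530220-142530302, plus strand: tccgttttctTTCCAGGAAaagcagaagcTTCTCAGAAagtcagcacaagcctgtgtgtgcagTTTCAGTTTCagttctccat
In the first 4 the GAS opened 45, 75, 88 and 81 bases upstream of the RefSeq start and was followed after 2 bases by an ISRE. These genes are close paralogs on chromosome 11, and the windows of Igtp and Irgm2 were identical at 40 of 41 bases and those of Igtp and Tgtp1 at 31. Among the 27025 genes with a promoter entry, 5 held a GAS and an ISRE in this arrangement in the 250 bases upstream, namely Gm12185, Igtp, Irgm2, Tgtp1 and Tgtp2. All 5 were higher in naive_GEMy, with log2 differences of -1.34, -1.73, -1.24, -1.81 and -1.31, but the arrangement was picked after the sequences and values had been seen. A GAS on either strand stood in the 250 upstream bases of 8.13% of all genes with an entry, and an ISRE in 3.46%. Of the 35 tested interferon-gamma response genes, 21 had an entry, and 11 of these held a GAS, 11 an ISRE and 6 both. Of 32 tested neutrophil genes, 28 had an entry, and 3 held a GAS and 0 an ISRE. A match is a description of the letters and not of a bound site.

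The 8 compared libraries held 27566843 to 33150528 assigned reads, as recovered from the step between low values. Surfactant and airway genes marked the samples as lung, with Sftpc at 2865 to 5087 FPKM and Scgb1a1 at 4763 to 6950 FPKM. Pearson correlations between replicates were 0.973 to 0.995 in tumor_untreated and 0.992 to 0.996 in naive_GEMy. The labels do not say that each library is a different mouse, so the p values measure only how far these libraries spread, which may be technical. The descriptions of all 4 tumor_untreated samples carry the number 1, followed by the letters BL, NC, TL and BR in replicates 1 to 4. What the number stands for cannot be told apart from the group, and the letters were not used here. Hemoglobin genes took 1.28, 1.54, 0.553 and 5.41% of reads in tumor_untreated replicates 1 to 4 and 0.244, 0.121, 0.1 and 0.335% in naive_GEMy replicates 1 to 4. The groups did not overlap in that share, with p = 0.0286 in an exact 2-sided permutation test, the smallest that 4 against 4 libraries allow. Values below are in the order of replicates 1 to 4, and a log2 difference is tumor_untreated minus naive_GEMy on the log2(FPKM + 0.5) scale, which understates differences of genes near 0.5 FPKM.

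The lungs differed in 2 main directions. Genes of neutrophils and of a cluster of granzymes were higher with a tumor, and genes induced by interferon-gamma, with those of antigen presentation, were higher after IL12-GEMy. In limma, 2335 of 10284 genes passed an adjusted p of 0.05, 22.7% of those tested. Of these 885 (8.61%) were higher in tumor_untreated and 1450 (14.1%) in naive_GEMy. The order turned at larger sizes, since 146 genes (1.42%) were at least 2-fold higher in tumor_untreated and 36 (0.35%) in naive_GEMy. After median-of-ratios scaling 1152 genes were higher in tumor_untreated and 850 in naive_GEMy, so the direction of the majority depended on the scaling. The median log2 difference over all tested genes was -0.0436 as deposited and 0.000543 after that scaling. With the log2 of the hemoglobin share as a covariate 475 genes passed, 294 higher in tumor_untreated and 181 in naive_GEMy. That share did not overlap between the groups, so this covariate and the group cannot be fully told apart. The part of hemoglobin in the other calls was not tested. Of the list members called below, 14 met the minimum only with the tumor_untreated lungs in which they were high, among them Arg1, Ctsg, Cxcr1, Il1r2 and Sele, and 2 only with the naive_GEMy lungs. In a fit without minimum 13 of the 14 and both of the 2 passed, and Cd28 did not (adjusted p = 0.0619).

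**Figure D1:**
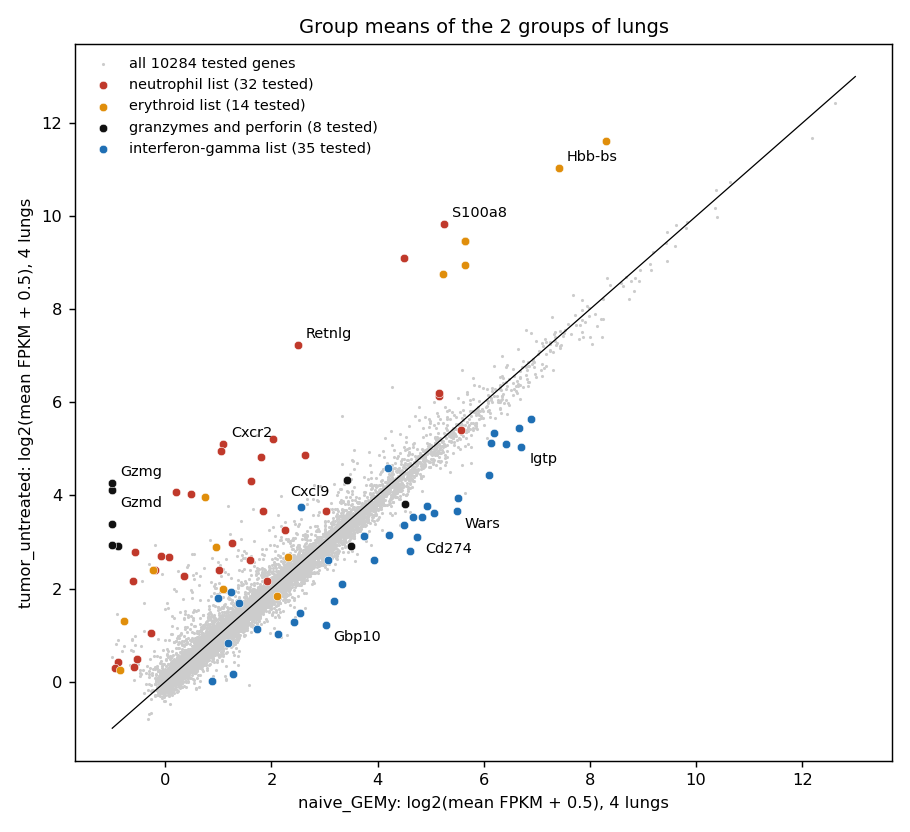
Group means on the log2 scale for 10284 tested genes, with naive_GEMy on the horizontal and tumor_untreated on the vertical axis, and the line of equality. The coloured points are the tested members of 4 gene lists. Most neutrophil, erythroid and granzyme genes lie above the line and most interferon-gamma response genes below it.

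Neutrophil genes were among those with the largest differences. S100a8 (chromosome 3, 90669071 to 90670034), a chain of the calprotectin dimer that fills the neutrophil cytosol, stood at 918, 788, 675 and 1273 FPKM in tumor_untreated and at 22.7, 38.6, 51.5 and 37.2 FPKM in naive_GEMy. The lowest lung with a tumor was far above the highest lung with IL12-GEMy, and the latter lay near the naive_untreated level of 38.0 ± 8.51 FPKM (SD, n = 4). Its mean was 24.3-fold higher in tumor_untreated (log2 difference 4.60, SE 0.32, adjusted p = 9.99e-08). Cxcr2 (chromosome 1, 74153994 to 74161246), the receptor that guides neutrophils to CXC chemokines, stood at 31.3, 27.4, 29.7 and 47.6 FPKM against 1.48, 1.82, 1.26 and 2.00 FPKM. No value of one group came near the other (log2 difference 3.99, SE 0.23, adjusted p = 1.94e-08). Retnlg, a secreted resistin-family protein of neutrophils, stood at 212, 116, 96.5 and 173 FPKM against 4.66, 5.34, 5.45 and 5.18 FPKM (log2 difference 4.66, adjusted p = 1.05e-07). The naive_GEMy libraries were alike within 1 FPKM, whereas the tumor_untreated libraries spread more than 2-fold.

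Of 36 listed genes of the neutrophil surface, cytosol and late granules, 32 were tested, and 29 were higher in tumor_untreated and 0 in naive_GEMy, against 8.61% and 14.1% of all tested genes. The median log2 difference was 2.21, against -0.0436 over all tested genes. For 29 of the 32 every tumor lung was above every naive_GEMy lung, against 8.58% of all tested genes. Surface molecules were among them, with the G-CSF receptor gene Csf3r at 2.72, the marker Ly6g at 3.34 and the activating receptor Trem1 at 2.56. The granule proteases Mmp8 (3.78) and Mmp9 (3.17) were higher too. Among neutrophil genes, Mrgpra2b, Padi4 and Prok2 met the minimum only with the tumor_untreated lungs in which they were high. In the fit without minimum they passed (adjusted p = 0.000143, 0.000837 and 0.00183). Slfn4, a myeloid member of the Schlafen family, had 11.0, 15.9, 15.8 and 20.8 FPKM against 1.19, 0.727, 0.847 and 0.856 FPKM (log2 difference 3.52, adjusted p = 6.70e-09). The 3 tested members that did not pass were Ltf (0.29), Camp (1.29, adjusted p = 0.0705) and G0s2 (-0.16). Camp, a cathelicidin of specific granules, stood at 5.44, 5.77, 5.53 and 5.68 FPKM against 0.695, 1.89, 5.98 and 1.59 FPKM. Only naive_GEMy replicate 3 reached the tumor level, and without it Camp passed (1.75, adjusted p = 0.012). In bulk tissue, fewer cells of a type and less RNA per cell cannot be told apart.

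The injected product itself held neutrophil transcripts, with 493 FPKM of S100a8, 87.6 of Mmp8 and 2.88 of Cxcr2, and a single library of it was made. Mmp8, a collagenase of neutrophil granules, was nevertheless at 0.465, 0.598, 0.804 and 0.705 FPKM in naive_GEMy lungs and at 0.712 ± 0.104 in naive_untreated. Primary granule proteases of immature myeloid cells were strong in the product too, with Ctsg at 146 and Prtn3 at 114 FPKM. In the lungs Ctsg (cathepsin G) stood at 0.841, 1.01, 1.25 and 2.31 FPKM in tumor_untreated and 0.075, 0.0913, 0.314 and 0.119 in naive_GEMy. The groups did not overlap. Ctsg met the minimum only with the tumor_untreated lungs, so the fit without minimum is given (log2 difference 1.47, adjusted p = 0.000994). Of 9 tested genes of that list 2 were higher in tumor_untreated, Ctsg and Prtn3 (0.87, adjusted p = 0.00755), and 1 in naive_GEMy, Cd63. The shares over all tested genes were 8.61% and 14.1%. Neither Ctsg nor Prtn3 passed with the hemoglobin covariate (adjusted p = 0.0524 and 0.237), and Cd63 (-0.25) did not pass without naive_GEMy replicate 1, 2 or 4 or tumor_untreated replicate 3 or 4 (adjusted p = 0.0538 to 0.122). With that covariate 23 of the 32 genes of the neutrophil list passed, and 29 did without tumor_untreated replicate 1 or without replicate 4.

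**Figure D2:**
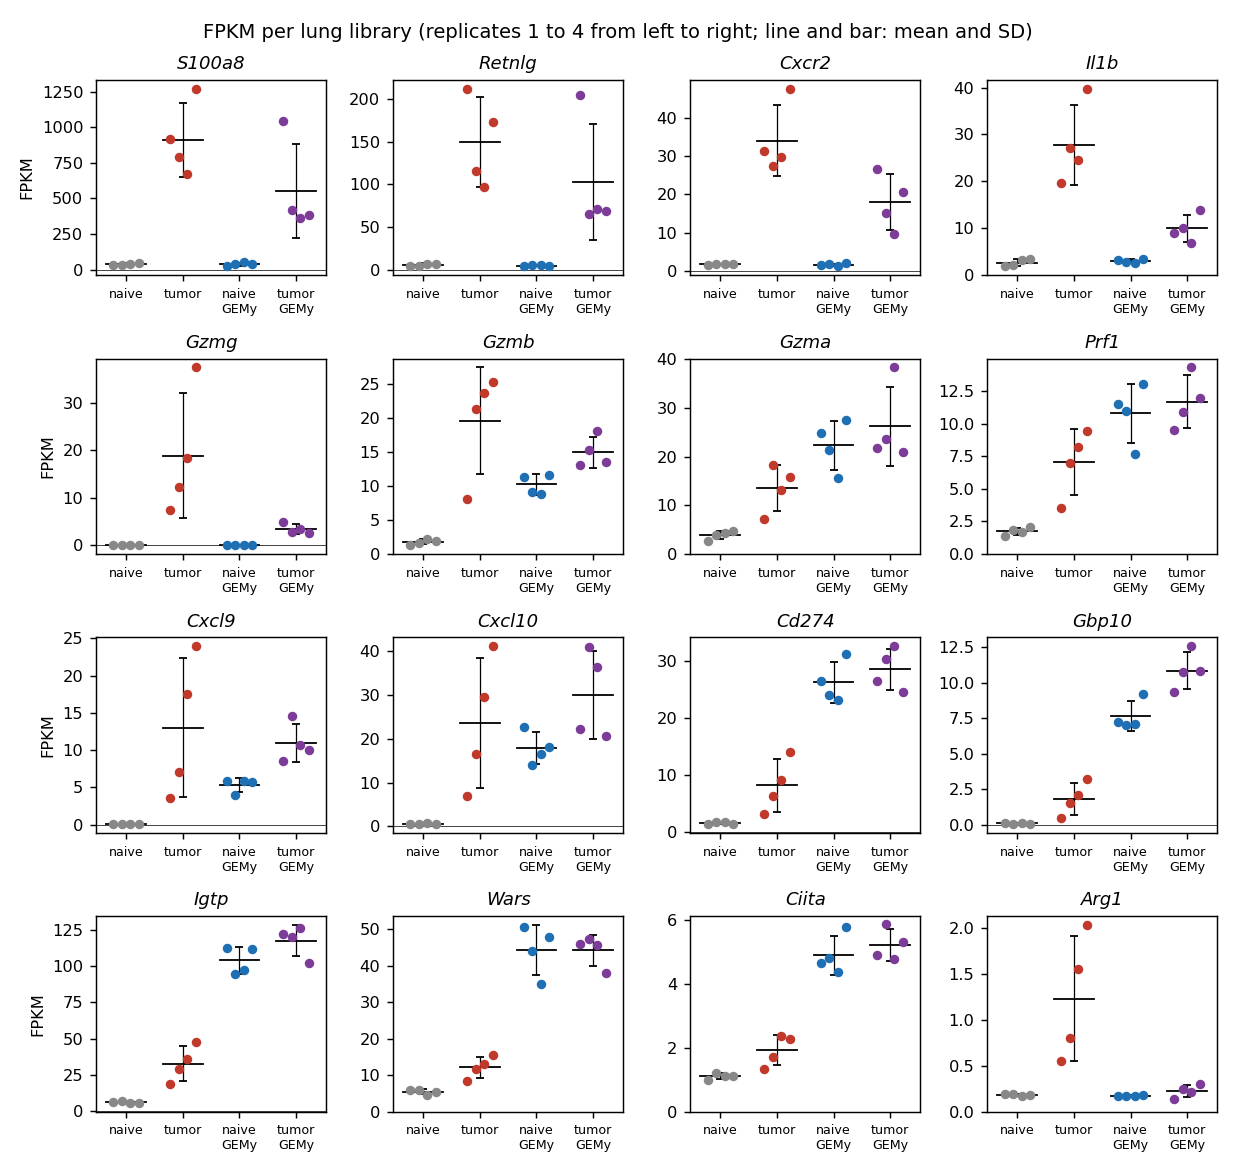
FPKM of 16 genes in each of the 16 lung libraries, with 1 point per library, a line at the group mean and a bar of 1 SD. S100a8, Retnlg, Cxcr2, Il1b, Gzmg and Arg1 were high in tumor_untreated (red) and at the naive_untreated level (grey) in naive_GEMy (blue). Cd274, Gbp10, Igtp, Wars and Ciita were highest in the groups with IL12-GEMy, and tumor_GEMy (purple) is shown for reference.

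The granzyme genes split by gene. Gzmg (chromosome 14, 56156581 to 56159579) stood at 7.39, 12.2, 18.3 and 37.4 FPKM in tumor_untreated and was at 0 in all naive_GEMy and naive_untreated libraries. It had 7006 reads over the 4 tumor_untreated libraries and 0 over the 4 naive_GEMy libraries, at least 2297-fold more when the 4 empty libraries are given 3 reads in all. Gzmd, Gzme and Gzmf, its neighbours on chromosome 14, had 6305, 2674 and 7587 reads in tumor_untreated and 0 in naive_GEMy, at least 2067-fold, 877-fold and 2487-fold more. Of the Gzmg reads 3637 came from tumor_untreated replicate 4, and leaving it out gave bounds of 1496 (Gzmg), 1361 (Gzmd), 595 (Gzme) and 1614 (Gzmf). Gzmc had 2815 reads against 14, a ratio of 198 with a 95% counting interval of 118 to 362. Gzmc, Gzmd, Gzme, Gzmf and Gzmg are neighbouring paralogs, so how reads were divided among them is uncertain, and the intervals and floors cover counting error only.

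The granzymes that NK cells and killer T cells use most widely were present in both lungs. Gzmb (granzyme B, which cleaves caspases) stood at 8.16, 21.3, 23.6 and 25.4 FPKM in tumor_untreated and at 11.3, 9.10, 8.80 and 11.6 FPKM in naive_GEMy, against 1.80 ± 0.382 in naive_untreated. In tumor_untreated 3 lungs lay above all naive_GEMy lungs and replicate 1 lay below them. It passed at a log2 difference of 0.80 (adjusted p = 0.0384), but not without tumor_untreated replicate 2, 3 or 4 or naive_GEMy replicate 1, 2 or 3 (adjusted p = 0.0619 to 0.125), with no minimum (0.0645), in the 8 libraries alone (0.113) or with the hemoglobin covariate (0.276). Gzma (granzyme A) stood at 7.24, 18.3, 13.2 and 15.7 FPKM against 24.7, 21.4, 15.6 and 27.4 FPKM. The groups overlapped and the gene did not pass (-0.73, adjusted p = 0.0537), although it passed without tumor_untreated replicate 2 (-0.90, adjusted p = 0.0294) or naive_GEMy replicate 3 (-0.89, 0.0319) and with a minimum of 1 FPKM (0.0493). Perforin (Prf1) stood at 3.53, 7.01, 8.2 and 9.44 FPKM against 11.5, 10.9, 7.67 and 13.0 FPKM. It overlapped too (-0.63, adjusted p = 0.0553) and passed without tumor_untreated replicate 4 (-0.79, adjusted p = 0.0296) or naive_GEMy replicate 3 (-0.78, 0.0297), with array weights (0.013) and with the replicate number as a block (0.0363).

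Within each library the balance of these genes separated the groups. The ratio of Gzmb to Gzma, both in FPKM, was 1.13, 1.16, 1.79 and 1.61 in tumor_untreated and 0.459, 0.426, 0.564 and 0.425 in naive_GEMy. In naive_untreated it was 0.413 to 0.511, which overlaps the naive_GEMy range. The ratio of Gzmb to Prf1 was 2.31 to 3.04 in tumor_untreated, 0.832 to 1.15 in naive_GEMy and 0.885 to 1.34 in naive_untreated. These ratios were chosen after the values had been seen and are given without a test.

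**Figure D3:**
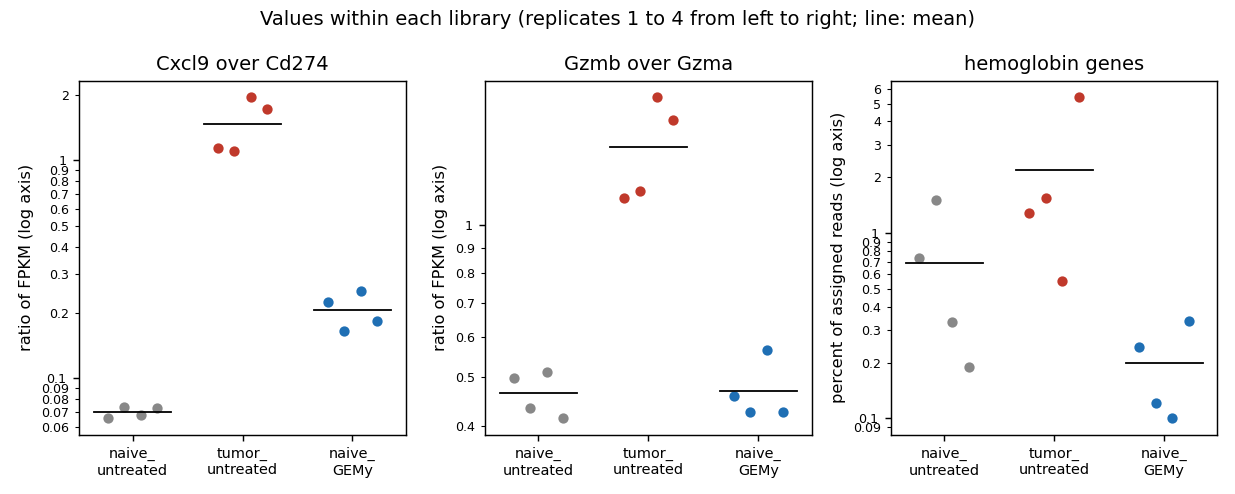
Values within each lung library on log axes, with 1 point per library and a line at the mean: Cxcl9 over Cd274 and Gzmb over Gzma as ratios of FPKM, and hemoglobin genes as percent of assigned reads. The 4 tumor_untreated libraries lie above the 4 naive_GEMy libraries in each panel.

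The interferon-gamma response genes were mostly higher after IL12-GEMy, and those named here were above the naive_untreated level in both lungs. Cd274 (chromosome 19, 29367438 to 29388094), which encodes PD-L1, stood at 3.20, 6.39, 9.02 and 14.0 FPKM in tumor_untreated and at 26.4, 24, 23.1 and 31.2 FPKM in naive_GEMy. Every lung with IL12-GEMy exceeded every lung with a tumor, and naive_untreated lay at 1.59 ± 0.173 FPKM. Its mean was 3.21-fold higher in naive_GEMy (log2 difference -1.78, SE 0.28, adjusted p = 0.000345). Igtp (chromosome 11, 58199556 to 58207592), a GTPase that acts on membranes of intracellular pathogens and whose promoter is printed above, stood at 18.7, 28.9, 35.6 and 47.5 FPKM against 113, 94.7, 97.5 and 112 FPKM (log2 difference -1.73, SE 0.19, adjusted p = 1.09e-05). The groups did not overlap, and naive_untreated lay at 6.23 ± 0.593 FPKM. Gbp10, a guanylate-binding protein gene, stood at 0.503, 1.54, 2.09 and 3.18 FPKM against 7.23, 7.02, 7.05 and 9.21 FPKM (log2 difference -1.94, adjusted p = 0.000107). Wars, the tryptophanyl-tRNA synthetase gene, stood at 8.45, 11.6, 13.0 and 15.5 FPKM against 50.6, 44.0, 35 and 47.9 FPKM (log2 difference -1.85, adjusted p = 5.46e-07). In both genes the highest tumor lung stayed below the lowest naive_GEMy lung.

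Of 40 listed interferon-gamma response genes 35 were tested, and 29 were higher in naive_GEMy and 1 in tumor_untreated, against 14.1% and 8.61% of all tested genes. The median log2 difference was -1.21, and for 28 of the 35 every naive_GEMy lung was above every tumor lung, against 13.8% of all tested genes. Among regulators of the pathway, the transcription factor Irf1 (-0.90) and the feedback inhibitor Socs1 (-1.5) were higher in naive_GEMy. Irf1 stood at 25.7, 39.8, 44.1 and 50.0 FPKM against 82.0, 68.3, 65.7 and 76.1 FPKM, without overlap. Among effectors, Gbp2 (-1.51), Gbp3 (-1.45), Gbp5 (-1.48), Gbp6 (-1.58), Iigp1 (-1.69) and Tgtp1 (-1.81) were higher in naive_GEMy. Serpina3f, a serine protease inhibitor gene, differed by -1.83 and its neighbour Serpina3g by -1.10, and the 2 gene spans overlap in the files. With the hemoglobin covariate 25 of the list were higher in naive_GEMy and 0 in tumor_untreated, and without tumor_untreated replicate 1 the count higher in tumor_untreated was 4.

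A few members of the list did not follow. Cxcl9 (chromosome 5, 92321331 to 92328079), a chemokine that draws CXCR3-bearing T cells, stood at 3.62, 7.02, 17.6 and 23.9 FPKM in tumor_untreated and at 5.90, 3.96, 5.82 and 5.72 FPKM in naive_GEMy, against 0.112 ± 0.0140 in naive_untreated. Replicate 1 lay below all naive_GEMy lungs, and the other 3 tumor lungs lay above all of them. It did not pass (log2 difference 0.90, 95% interval 0.07 to 1.74, adjusted p = 0.107), but without tumor_untreated replicate 1 it was higher in tumor_untreated (1.36, adjusted p = 0.00402). Cxcl10, a chemokine for the same receptor, stood at 6.98, 16.6, 29.5 and 41.1 FPKM against 22.8, 14.0, 16.5 and 18.1 FPKM and overlapped (0.15, adjusted p = 0.806). Upp1, the uridine phosphorylase gene, was the 1 member higher in tumor_untreated (0.77, adjusted p = 0.0115), and it did not pass with the hemoglobin covariate (adjusted p = 0.415). The ratio of Cxcl9 to Cd274 within each library was 1.13, 1.10, 1.95 and 1.71 in tumor_untreated, 0.223, 0.165, 0.252 and 0.184 in naive_GEMy and 0.0654 to 0.0739 in naive_untreated. This ratio too was chosen after the values had been seen.

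The tumor lungs varied together in these genes, though not in these alone. Tumor_untreated replicate 1 was the lowest of the 4 in 35 of 35 tested members and replicate 4 the highest in 32, whereas over all tested genes this held for 3452 and 2438 of 10284. The SD on the log2 scale was larger in tumor_untreated than in naive_GEMy for 34 of the 35, with medians of 0.557 and 0.185, and over all tested genes the medians were 0.117 and 0.0899. This SD was also larger for 18 of 18 cell cycle, 17 of 17 NK cell, 6 of 14 circadian and 6922 of 10284 tested genes. Replicate 1 was the lowest in 34 of 34 type I interferon, 17 of 17 NK cell and 18 of 18 cell cycle genes too. It was the lowest in 0 of 24 alveolar epithelial, 0 of 20 airway and 8 of 32 neutrophil genes. Ifng itself (chromosome 10, 118441046 to 118445894) stood at 0.224, 0.341, 0.666 and 1.18 FPKM in tumor_untreated and at 0.901, 0.551, 0.768 and 0.801 FPKM in naive_GEMy, against 0.0444 ± 0.0136 in naive_untreated. Its lowest and its highest value were both in tumor lungs, in the same replicates 1 and 4. It did not pass (-0.26, 95% interval -0.68 to 0.17, adjusted p = 0.357), but passed without tumor_untreated replicate 4 (-0.48, adjusted p = 0.0467).

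**Figure D4:**
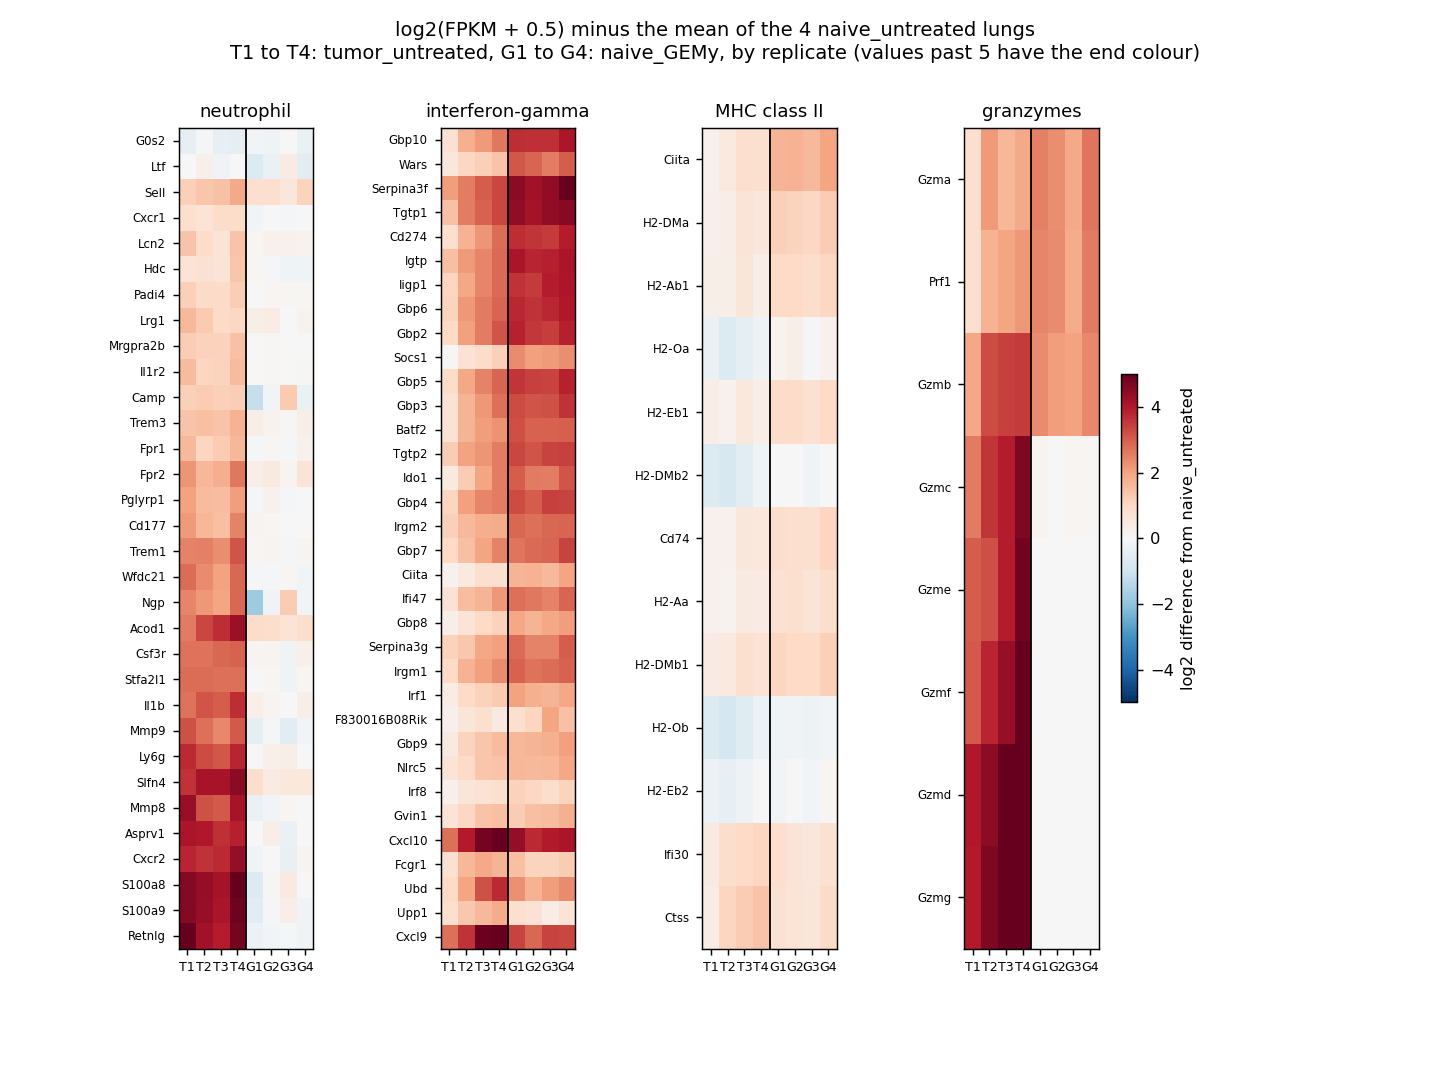
Log2(FPKM + 0.5) of tested members of 4 lists in the 8 compared libraries, minus the mean of the 4 naive_untreated lungs, with tumor_untreated to the left and naive_GEMy to the right of the black line. Most neutrophil genes, and Gzmc to Gzmg, are high in the tumor columns alone. Interferon-gamma genes are raised in both groups, least in T1, and MHC class II genes mainly in the naive_GEMy columns.

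Genes named for type I interferon share many regulators with interferon-gamma. Of 34 tested, 4 were higher in tumor_untreated, near the 8.61% of all tested genes, and 10 in naive_GEMy, against 14.1% of all, with a median log2 difference of -0.20. Rsad2, which encodes the antiviral protein viperin, stood at 5.14, 7.77, 7.02 and 17.9 FPKM against 3.79, 3.09, 3.35 and 4.07 FPKM (log2 difference 1.14, adjusted p = 0.0104). All tumor lungs were above all naive_GEMy lungs, replicate 4 by most. Oas3 (1.06, adjusted p = 0.00137) and Oasl1 (0.65), of the oligoadenylate synthetase family, and Trim30a (0.43) were the other 3. With the hemoglobin covariate none of the 4 passed (Rsad2 adjusted p = 0.635, Oas3 0.144, Oasl1 0.289, Trim30a 0.437), and Trim30a also failed without any 1 of tumor_untreated replicates 2 to 4 or naive_GEMy replicates 1 to 3 (0.0553 to 0.12). Ifit3, which binds viral RNA in a complex with its paralogs, stood at 15.6, 27.5, 31 and 27.2 FPKM against 65.0, 46.9, 49.5 and 54.1 FPKM (-1.11, adjusted p = 0.000368). There the naive_GEMy lungs were all higher, as for its neighbour Ifit3b (-0.96). Isg15 (0.01, adjusted p = 0.971) and Mx1 (-0.02, adjusted p = 0.942), 2 common markers of the response, did not pass.

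Antigen presentation genes were higher after IL12-GEMy. The MHC class I pathway shows peptides from inside the cell to CD8 T cells. Of its 22 genes 18 were higher in naive_GEMy and 1 in tumor_untreated (median -0.53), against 14.1% and 8.61% of all tested genes. Tap1, a subunit of the peptide transporter, stood at 15.8, 23.5, 28.6 and 30.9 FPKM against 53.3, 45.4, 40.1 and 51.4 FPKM (log2 difference -0.97, adjusted p = 0.000725). The immunoproteasome subunits Psmb8 (-0.72), Psmb9 (-0.86) and Psmb10 (-0.82) were higher in naive_GEMy too, while the light chain B2m did not pass (-0.20, adjusted p = 0.162). H2-Q10, a secreted class I molecule known from liver, was the exception, at 4.22, 4.29, 4.03 and 4.61 FPKM against 1.05, 1.20, 0.867 and 1.13 FPKM. Tumor lungs were all higher (log2 difference 1.62, SE 0.16, adjusted p = 2.98e-06), naive_untreated lay at 0.929 ± 0.125, and reads of near-identical H2 genes may be divided uncertainly. The hemoglobin covariate left 12 of the 22 higher in naive_GEMy.

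MHC class II shows peptides to CD4 T cells. Of its 13 tested genes 10 were higher in naive_GEMy and 0 in tumor_untreated (median -0.51), against 14.1% and 8.61% of all tested genes. Ciita, the transactivator that switches the others on, stood at 1.34, 1.73, 2.35 and 2.27 FPKM against 4.65, 4.79, 4.36 and 5.77 FPKM (log2 difference -1.17, SE 0.12, adjusted p = 4.90e-06). H2-Ab1, a beta chain, stood at 96.4, 96.7, 120 and 99.2 FPKM against 159, 160, 146 and 163 FPKM (-0.61, adjusted p = 0.000333). In both, the groups were apart, and naive_untreated lay at 1.10 ± 0.0916 and 79.8 ± 9.77 FPKM. The peptide editor H2-DMa differed by -0.70. Under the hemoglobin covariate 6 of the 13 were higher in naive_GEMy, and without tumor_untreated replicate 1 the count higher in tumor_untreated was 2.

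Lymphocyte markers showed no common direction. Of 17 tested NK cell genes 2 were higher in tumor_untreated and 2 in naive_GEMy (median -0.05), near the 8.61% and 14.1% of all tested genes. Xcl1, a chemokine that NK cells release for dendritic cells, stood at 0.210, 0.644, 0.655 and 0.596 FPKM against 2.24, 1.49, 1.19 and 1.93 FPKM (log2 difference -1.11, adjusted p = 0.000485), with every naive_GEMy lung higher. Ncr1, the gene of the activating receptor NKp46, differed by -0.96 (adjusted p = 0.00187, and 0.0791 with the hemoglobin covariate). Cd244a, a receptor of the SLAM family, went the other way, at 1.20, 1.77, 2.22 and 2.01 FPKM against 0.580, 0.616, 0.479 and 0.690 FPKM (log2 difference 1.06, adjusted p = 7.49e-06). The 4 tumor lungs were all higher. The last of the 4 genes was Klrb1b (0.27, adjusted p = 0.0161), which did not pass without tumor_untreated replicate 3 or naive_GEMy replicate 1 (adjusted p = 0.0514 and 0.0546). Without tumor_untreated replicate 1 the count higher in tumor_untreated was 4.

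Of 18 tested T cell genes 6 were higher in tumor_untreated and 2 in naive_GEMy (median 0.22), against 8.61% and 14.1% of all tested genes. The T cell gene Cd28 (0.25, adjusted p = 0.0405) met the minimum only with a tumor_untreated lung. It did not pass in the fit without minimum (adjusted p = 0.0619). The coreceptor gene Cd8a stood at 2.05, 3.41, 4.99 and 6.33 FPKM against 1.54, 1.85, 1.66 and 2.36 FPKM (log2 difference 0.91, adjusted p = 0.0109). Replicate 1 lay inside the naive_GEMy range and the other 3 above it, and the gene did not pass with the hemoglobin covariate (adjusted p = 0.178). Cd3e, present in all T cells, did not pass (0.29, adjusted p = 0.192) except without tumor_untreated replicate 1 (0.43, adjusted p = 0.0392). Tbx21, which encodes the T helper 1 factor T-bet, was higher in naive_GEMy, at 0.374, 0.706, 0.871 and 0.795 FPKM against 1.51, 1.41, 1.07 and 1.75 FPKM (-0.71, adjusted p = 0.00114). With the covariate 0 of the list were higher in tumor_untreated, and without tumor_untreated replicate 4 the count was 3. Foxp3, the factor of regulatory T cells, lay under the minimum, at 0.198 ± 0.0233 and 0.129 ± 0.0301 FPKM, and did not pass in a fit without minimum (0.15, adjusted p = 0.124).

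The B cell genes that passed were all lower in the tumor lungs. Of 12 tested 6 were higher in naive_GEMy and 0 in tumor_untreated (median -0.39), against 14.1% and 8.61% of all tested genes. Cd79a, a signalling chain of the B cell receptor, stood at 10.4, 10.2, 11.2 and 15.4 FPKM against 20.6, 20.4, 17.8 and 20 FPKM (log2 difference -0.73, adjusted p = 0.00309). Cd79b, its partner chain, differed by the same amount (-0.73, adjusted p = 0.00758). Tumor lungs were all lower in both, and naive_untreated lay at 23.9 ± 5.52 and 28.8 ± 7.09 FPKM. With the hemoglobin covariate 0 of the list passed (Cd79a adjusted p = 0.0524 and Cd79b 0.0918), 9 did without tumor_untreated replicate 4 and 3 without replicate 1. After median-of-ratios scaling 3 passed.

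Of 11 tested genes of IL-12 signalling and T helper 1 cells 4 were higher in tumor_untreated and 3 in naive_GEMy (median -0.05). The shares over all tested genes were 8.61% and 14.1%. The genes of IL-12 itself, Il12a and Il12b, lay under the minimum in both lungs. Il12a stood at 0.127 ± 0.0434 FPKM in tumor_untreated and 0.157 ± 0.0313 in naive_GEMy, and Il12b at 0.230 ± 0.0749 and 0.161 ± 0.0450. Neither passed without minimum (adjusted p = 0.342 and 0.203), and the sequence of the IL-12 construct was not analysed here. Il18bp, the decoy for IL-18, stood at 5.39, 8.63, 11.1 and 14.4 FPKM against 24.8, 19.4, 18.8 and 21.1 FPKM (log2 difference -1.12, adjusted p = 0.00098), without overlap. Ebi3, a subunit shared by IL-27 and IL-35, was higher in tumor_untreated (0.72, adjusted p = 0.000163), as was Ifngr1, the ligand-binding chain of the interferon-gamma receptor (0.52, adjusted p = 1.05e-05). Ifngr1 stood at 13.7, 13.8, 13.8 and 13.6 FPKM against 8.79, 9.04, 9.43 and 10.5 FPKM, and the tumor lungs were alike and above all others.

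Some genes listed for monocytes and macrophages, not all of them particular to these cells, were also higher with a tumor. Of 28 tested monocyte and macrophage genes 11 were higher in tumor_untreated and 2 in naive_GEMy (median 0.24), against 8.61% and 14.1% of all tested genes. Itgam, the integrin chain CD11b of neutrophils and monocytes, stood at 2.96, 3.55, 4.07 and 4.94 FPKM against 1.23, 1.25, 1.12 and 1.67 FPKM (log2 difference 1.26, adjusted p = 6.41e-05). The tumor lungs were all higher, as for Nr4a1, a nuclear receptor of patrolling monocytes (1.20), and Fcgr3 (1.05). Nr4a1 also stands in the immediate early list. Ly6c2, a marker of inflammatory monocytes, did not pass (-0.13, adjusted p = 0.664), and it stood at 31 ± 9.18 and 33.3 ± 7.19 FPKM, against 5.96 ± 0.749 in naive_untreated. Cx3cr1 (-0.13), C1qa (0.02) and Mrc1 (0.05) did not pass either, nor did Ccr2 (0.59, adjusted p = 0.0746), which passed in 3 of the alternatives. Without tumor_untreated replicate 1 the list had 17 genes higher in tumor_untreated, and with the hemoglobin covariate 4. Of 18 tested alveolar macrophage genes 5 were higher in naive_GEMy and 0 in tumor_untreated (median -0.09), against 14.1% and 8.61% of all tested genes. After median-of-ratios scaling 1 was higher in naive_GEMy, and with the covariate 0 passed. Krt19 (-0.48, adjusted p = 0.0245), the largest of these 5 and a keratin of epithelium too, did not pass without tumor_untreated replicate 3 or 4 or naive_GEMy replicate 1 or 2 (adjusted p = 0.0635 to 0.0861).

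Genes associated with myeloid suppression of T cells divided between the lungs. Of 27 tested, S100a8 and S100a9 among them, 15 were higher in tumor_untreated and 4 in naive_GEMy (median 0.36). The shares over all tested genes were 8.61% and 14.1%. Arg1 (chromosome 10, 24915207 to 24927470), the arginase that depletes arginine, stood at 0.549, 0.801, 1.55 and 2.04 FPKM against 0.173, 0.173, 0.166 and 0.183 FPKM. It reached 0.5 FPKM in the 4 tumor_untreated libraries alone and so was tested only through the group where it is high, and its values are given without a test. The naive_GEMy lungs were at the naive_untreated level of 0.186 ± 0.0110. Cd33, a surface receptor of myeloid cells, differed by 2.20 and Wfdc17 by 3.55. Higher in naive_GEMy were Cd274, Ido1, Il10 and Ptges, and of these Ido1 and Cd274 are induced by interferon-gamma and stand in both lists. Il10, the suppressive cytokine gene, stood at 0.0588, 0.0506, 0.0920 and 0.0842 FPKM against 0.328, 0.198, 0.274 and 0.388 FPKM (-0.47, adjusted p = 0.000295). These values were all under 0.5 FPKM, and the groups were apart. Il10 met the minimum through the 4 tumor_GEMy lungs alone (0.5 to 0.774 FPKM). Ido1 (-1.28, adjusted p = 0.015), which breaks down tryptophan, did not pass in the 8 libraries alone (0.058) or with the hemoglobin covariate (0.0891). With the covariate 8 of the list were higher in tumor_untreated and 2 in naive_GEMy.

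Among chemokines and their receptors, receptors of neutrophils and monocytes were higher with a tumor. Ccr1, a receptor for CCL3, CCL5 and CCL9 on myeloid cells, stood at 12.2, 11.6, 11.9 and 17.3 FPKM against 1.88, 1.71, 1.55 and 1.97 FPKM (log2 difference 2.58, SE 0.15, adjusted p = 1.94e-08). Its ligand Ccl9 was higher with a tumor as well, at 7.37, 10.9, 9.83 and 12.7 FPKM against 4.17, 4.17, 3.87 and 4.78 FPKM (1.15, adjusted p = 3.24e-05). In both, every tumor lung was higher. Ccl19, which guides T cells and dendritic cells through CCR7, was higher in naive_GEMy, at 2.26, 2.09, 2.04 and 1.93 FPKM against 1.21, 0.748, 0.691 and 0.479 FPKM in tumor_untreated (-1.04, adjusted p = 0.000743). Of 31 tested genes of monocyte and T cell chemokines and receptors 5 were higher in tumor_untreated and 5 in naive_GEMy (median 0.14). The shares over all tested genes were 8.61% and 14.1%, and without tumor_untreated replicate 1 the counts of the list were 11 and 4. Of 9 tested neutrophil chemokines and receptors 3 were higher in tumor_untreated and 1 in naive_GEMy (median 0.57), against 8.61% and 14.1% of all tested genes. The 3 were receptors, Cxcr1 (0.90), Cxcr2 (3.99) and Cxcr4 (0.68). Cxcr1 met the minimum only with the tumor_untreated lungs, and it passed in the fit without minimum (adjusted p = 4.92e-05). The ligand gene Cxcl1 did not pass (0.05), nor did Ppbp (0.94, adjusted p = 0.146), which platelets carry.

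In the IL-1 and IL-6 families 7 of 16 tested genes were higher in tumor_untreated and 2 in naive_GEMy (median 0.15), against 8.61% and 14.1% of all tested genes. Il1b, the inflammasome-processed cytokine, stood at 19.6, 27.1, 24.6 and 39.8 FPKM against 3.22, 2.87, 2.52 and 3.43 FPKM (log2 difference 2.97, adjusted p = 1.72e-07). Its antagonist Il1rn (1.23) and its decoy receptor Il1r2 (1.29) were higher in the same lungs. Il1r2 and Nlrp3 (0.78) met the minimum only with the tumor_untreated lungs, and both passed in the fit without minimum (adjusted p = 0.000337 and 2.41e-05). Lif (-0.32) met the minimum only with the naive_GEMy lungs and passed in that fit too (adjusted p = 0.0211). Osm, oncostatin M, stood at 1.93, 1.68, 1.86 and 4.45 FPKM against 0.491, 0.463, 0.580 and 0.613 FPKM (1.44, adjusted p = 0.000234). The tumor lungs were all higher, replicate 4 by most. Csf1, the macrophage growth factor gene, was higher in naive_GEMy (-0.50, adjusted p = 0.000227). Of 13 tested acute phase genes 3 were higher in tumor_untreated and 2 in naive_GEMy (median -0.05), against 8.61% and 14.1% of all tested genes. Steap4, a metalloreductase induced in inflammation, stood at 3.64, 5.35, 5.37 and 5.82 FPKM against 0.691, 0.915, 0.850 and 0.866 FPKM (2.04, adjusted p = 4.04e-07), so that the tumor lungs were all higher. The acute phase counts were 1 and 1 with the hemoglobin covariate.

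**Figure D5:**
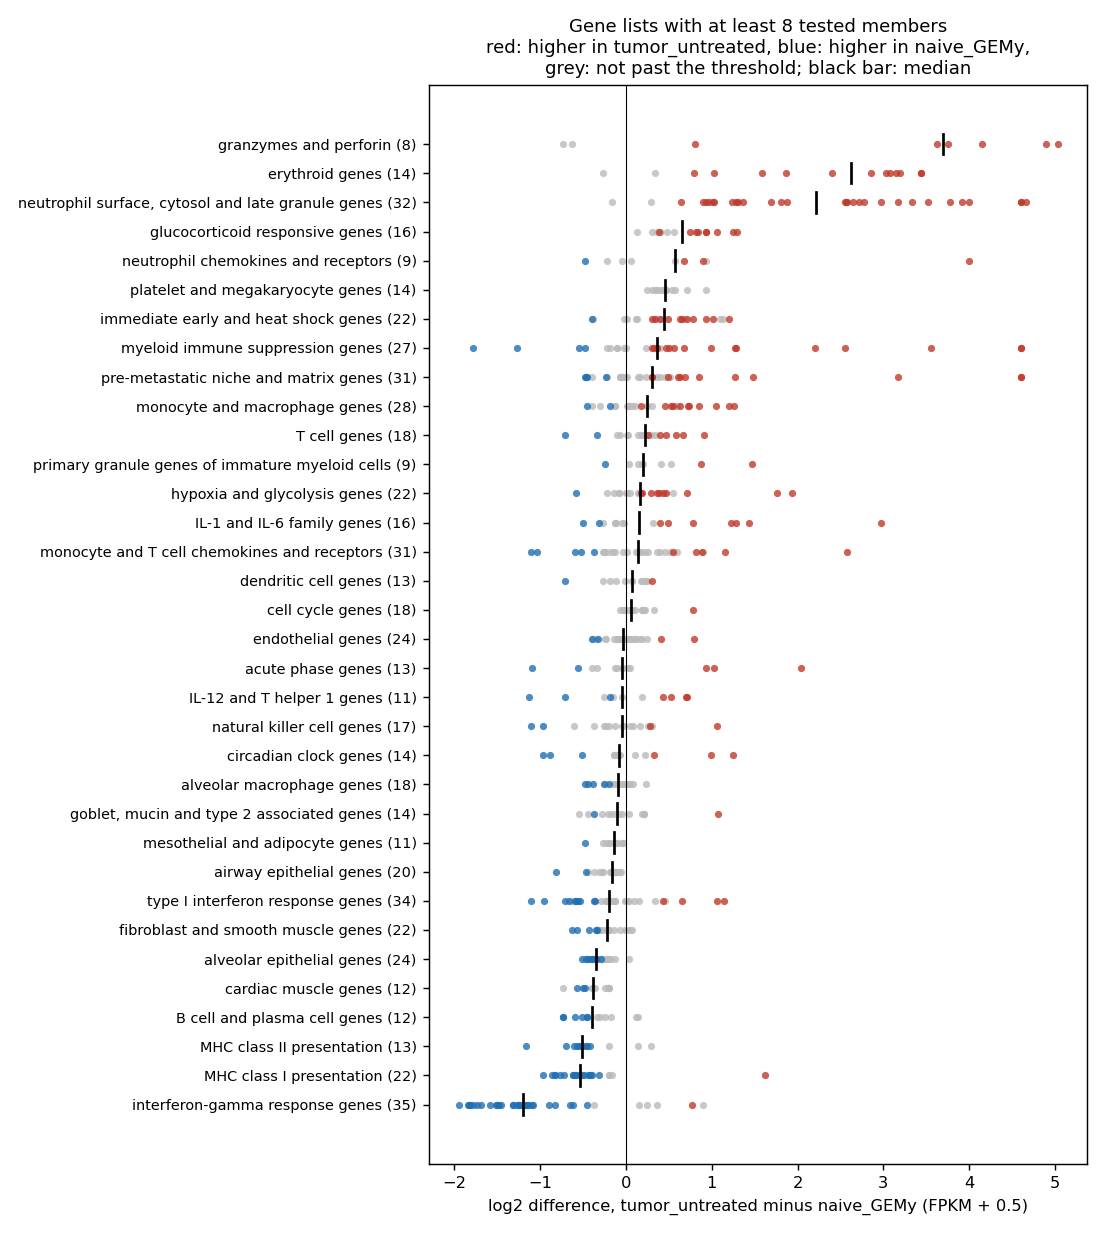
Log2 differences of the tested members of each gene list with at least 8 of them, 1 point per gene, coloured where the gene passed an adjusted p of 0.05 (red higher in tumor_untreated, blue higher in naive_GEMy), with a black bar at the median and the number tested in brackets. Medians run from 3.69 for granzymes and perforin to -1.21 for interferon-gamma response genes.

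Of the lists for resident lung cells, the alveolar epithelial one had the most calls. Of its 24 tested genes 8 were higher in naive_GEMy and 0 in tumor_untreated (median -0.35), against 14.1% and 8.61% of all tested genes, and 8 and 0 after median-of-ratios scaling. Sftpc, the surfactant protein of type 2 cells, stood at 3667, 3281, 2865 and 3221 FPKM against 5087, 4921, 3993 and 4650.4 FPKM (log2 difference -0.52, adjusted p = 0.0012, and 0.272 after quantile normalization). Etv5, a transcription factor that maintains those cells, differed by -0.47 (adjusted p = 0.000163). In both, the tumor lungs were all lower. With the hemoglobin covariate 4 of the list passed. Of 20 tested airway genes 2 were higher in naive_GEMy and 0 in tumor_untreated (median -0.16), under the 14.1% and 8.61% of all tested genes. These were Reg3g (-0.81, adjusted p = 0.0394) and Scgb3a1 (-0.46, adjusted p = 0.036), which respectively failed without any 1 of 6 libraries (tumor_untreated 2 to 4 and naive_GEMy 1 to 3, adjusted p = 0.0583 to 0.12) and of 6 libraries (tumor_untreated 2 to 4 and naive_GEMy 2 to 4, 0.0552 to 0.125). With the covariate 0 of the airway list passed, and 6 did without tumor_untreated replicate 1.

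Of 24 tested endothelial genes 2 were higher in tumor_untreated and 2 in naive_GEMy (median -0.03), a share near or under the 8.61% and 14.1% of all tested genes. Lyve1, of lymphatic vessels and some macrophages, stood at 41.4, 29.3, 25.9 and 36.2 FPKM against 16.1, 15.5, 21.1 and 22.8 FPKM (log2 difference 0.80, adjusted p = 0.00394, and 0.226 with the hemoglobin covariate). Its tumor values were all higher. Sele, the E-selectin of inflamed endothelium, passed at 0.41 (adjusted p = 0.0277) but not without tumor_untreated replicate 3 or 4 or naive_GEMy replicate 1, 2 or 3 (adjusted p = 0.0512 to 0.0977). Sele met the minimum only with the tumor_untreated lungs, and its adjusted p in the fit without minimum was 0.0487. Of 22 tested fibroblast and smooth muscle genes 5 were higher in naive_GEMy and 0 in tumor_untreated (median -0.23), against 14.1% and 8.61% of all. Inmt stood at 227, 178, 158 and 118 FPKM against 285, 256, 244 and 243 FPKM (-0.63, adjusted p = 0.00878, and 0.3 with the covariate), without overlap. With the covariate 0 of the endothelial and 0 of the fibroblast list passed, and 2 of the fibroblast list did without tumor_untreated replicate 4. In the matrix and pre-metastatic niche list, which also holds S100a8, S100a9 and Mmp9, 12 of 31 tested genes were higher in tumor_untreated and 4 in naive_GEMy (median 0.30). The shares over all tested genes were 8.61% and 14.1%. Thbs1, the matrix protein thrombospondin 1, differed by 0.85 (adjusted p = 0.00108, and 0.0572 with the covariate). Fn1 (fibronectin) differed by 0.30 but did not pass without tumor_untreated replicate 2 or 3 or naive_GEMy replicate 1 or 4 (adjusted p = 0.0504 to 0.0766), and Lox, a collagen cross-linking enzyme, did not pass (0.36). With the covariate 4 of the list were higher in tumor_untreated and 0 in naive_GEMy, and 10 and 2 without tumor_untreated replicate 4.

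Markers of tissues other than lung were checked in the same fit. Of 14 tested erythroid genes 12 were higher in tumor_untreated and 0 in naive_GEMy (median 2.63), against 8.61% and 14.1% of all tested genes. Hbb-bs, a beta globin, stood at 1096, 1290, 487 and 5533 FPKM against 212, 105, 87.3 and 275 FPKM (log2 difference 3.19, SE 0.82, adjusted p = 0.0126). Replicate 4 was the highest tumor lung for all 14 genes, and without it 8 were higher in tumor_untreated and 1 in naive_GEMy. With the log2 of the hemoglobin share, which these genes make up, as a covariate, 0 of the list passed. Hbb-b2 and Hbb-bt have the same values in all 17 libraries and are 1 measurement. Of 14 tested platelet genes 0 passed in limma and 0 with voom on recovered reads, 1 had an unadjusted p under 0.05, and the median was 0.45 with all 14 values positive. The product library held 0.000482% of hemoglobin reads.

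Cardiac muscle genes, from heart or pulmonary vein, summed to 39.0 to 82.0 FPKM in tumor_untreated and 75.7 to 93.9 FPKM in naive_GEMy over 15 listed genes. Of 12 tested 3 were higher in naive_GEMy, against 14.1% of all tested genes, and 1 was after median-of-ratios scaling. The 3 were Myl7 (-0.58, adjusted p = 0.0414), Sln (-0.5) and Tnnt2 (-0.48). Without tumor_untreated replicate 4, the lowest in Myl7, 0 of the list passed (Myl7 -0.37, adjusted p = 0.138). The calls were also lost in other fits with 1 library left out, Myl7 without tumor_untreated replicate 3 or naive_GEMy replicate 1, 2 or 3 (adjusted p = 0.0767 to 0.0944), Sln without naive_GEMy replicate 1, 2 or 3 (0.0537 to 0.0843) and Tnnt2 without tumor_untreated replicate 3 or naive_GEMy replicate 1, 3 or 4 (0.052 to 0.0963). Skeletal muscle genes summed to 1.20 to 1.77 FPKM in tumor_untreated and 1.61 to 2.01 in naive_GEMy over 11 genes, and of the 2 tested, Ckm (-0.25, adjusted p = 0.114) and Tnni2 (0.07, adjusted p = 0.45), 0 passed in limma, 0 with voom and 1 at an unadjusted p under 0.05. Without tumor_untreated replicate 1 Ckm was higher in naive_GEMy (-0.34, adjusted p = 0.0326). Myod1, Myog, Myf5 and Myf6, the myogenic factors that define rhabdomyosarcoma, were not analysed here.

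The lists for hormone response, time of day and metabolism were tested last. Of 16 tested glucocorticoid responsive genes 9 were higher in tumor_untreated and 0 in naive_GEMy (median 0.65), against 8.61% and 14.1% of all tested genes. Tsc22d3, which encodes the glucocorticoid-induced leucine zipper, stood at 9.39, 4.87, 5.09 and 6.69 FPKM against 1.98, 2.07, 2.49 and 2.59 FPKM (log2 difference 1.29, adjusted p = 9.73e-05). Per1, a clock gene with a glucocorticoid-responsive promoter that stands in 2 lists, had 20.2, 12.0, 13.2 and 13.3 FPKM against 5.41, 4.75, 6.41 and 6.79 FPKM (1.24, adjusted p = 0.000118). In both, the tumor lungs were all higher, and 4 of the list passed with the hemoglobin covariate. In the circadian list 3 of 14 tested genes were higher in tumor_untreated and 3 in naive_GEMy (median -0.09), against 8.61% and 14.1% of all tested genes. Besides Per1 these were Nfil3 (0.99) and Ciart (0.32) against Dbp (-0.97), Nr1d1 (-0.89) and Bhlhe41 (-0.51). With the covariate 2 and 0 passed, with Nr1d1 at an adjusted p of 0.214 and Dbp at 0.221. Ciart did not pass without tumor_untreated replicate 2 or 3 or naive_GEMy replicate 1 or 2 (adjusted p = 0.0527 to 0.0896). The hour of dissection is not given in the labels.

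Of 22 tested hypoxia and glycolysis genes 10 were higher in tumor_untreated and 1 in naive_GEMy (median 0.17), against 8.61% and 14.1% of all tested genes. The transporters led, with Slc16a3, which exports lactate, at 7.18, 8.79, 7.93 and 10.1 FPKM against 1.99, 1.94, 1.64 and 1.78 FPKM (log2 difference 1.94, adjusted p = 1.00e-06). Slc2a3, a glucose transporter of leukocytes, differed by 1.76 (adjusted p = 3.20e-05). In both the groups were apart, whereas the hypoxia target Vegfa did not pass (-0.22). With the hemoglobin covariate 2 of the list were higher in tumor_untreated. Of 22 tested immediate early and heat shock genes 11 were higher in tumor_untreated and 1 in naive_GEMy (median 0.44). The shares over all tested genes were 8.61% and 14.1%. Without tumor_untreated replicate 4 the counts of this list were 7 and 0, and with the covariate 4 and 0. Of 18 tested cell cycle genes 1 was higher in tumor_untreated, under the 8.61% of all tested genes. It was Ube2c (0.78, adjusted p = 0.012, and 0.499 with the covariate), and 0 were higher in naive_GEMy (median 0.06). Mki67, the proliferation marker Ki-67, did not pass (0.32, adjusted p = 0.0764) but passed without tumor_untreated replicate 1 (0.45, adjusted p = 0.00755), after median-of-ratios scaling (0.0444), with the replicate number as a block (0.0485) and with array weights (0.00337). Without tumor_untreated replicate 1, 5 of the list were higher in tumor_untreated.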

How the data were processed

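RNA-seq was made from 16 mouse lungs and 1 sample of injected cells. The authors deposited 1 table of FPKM per gene with gene coordinates, and per the submitters' processing notes it was made with STAR 2.7.3a and Partek on mm10; annotation and counting settings are not given in the sources used here. FPKM times genomic span summed to 1000000 in each column, and 86.7 to 87.9% of the values checked in the compared libraries were whole reads within 0.02, which gave the depths printed.

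Groups came from the labels. Differences were tested with limma 3.58.1 (R 4.3.3, trended and robust variance) on log2(FPKM + 0.5), for the 10284 genes that reached 0.5 FPKM in 4 or more of the 16 lungs. The 4 lung groups shared 1 estimate of the spread, and p values were adjusted by Benjamini and Hochberg over all tested genes with a threshold of 0.05. Tables and exact permutation tests used python 3.11.15, pandas 2.3.3 and scipy 1.17.1, plots matplotlib 3.10.9, and the fit was tested on simulated data. The 98 named genes were the 12 largest separated differences on each side, the 2 largest members of each of 37 gene lists, 22 fixed genes and all granzymes and resistins. Other list members in the text were chosen after their values were seen, and the members and lists were chosen with earlier results of these data known. Alternatives were 23 in number and covered pseudocounts, minimum, scaling, test, samples, the replicate block, a hemoglobin covariate and each left-out library; voom on recovered reads and rescaling without hemoglobin were added after seeing the data. The values of 1 list member are not reported here.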

Additional observations from a re-analysis of the deposited data

Results flagged for a closer look

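In 10 of 193 groups of 4 libraries, 1 library of a named gene stood far from the other 3 on the log2 scale, past the 95% limit of Dixon's gap test. Chance flags about 1 in 20 groups. In tumor_untreated, replicate 1 was low in Gzmb (8.16 FPKM, others 21.3 to 25.4) and Xcl1 (0.21, others 0.596 to 0.655). Replicate 2 was high in Nr4a1 (30.1, others 24.5 to 25.1). Replicate 4 was high in Ccr1 (17.3, others 11.6 to 12.2) and Osm (4.45, others 1.68 to 1.93).

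In naive_GEMy, replicate 2 was low in Cxcl9 (3.96 FPKM, others 5.72 to 5.90). Replicate 3 was high in Prtn3 (0.511, others 0.306 to 0.326) and in the heat shock gene Hspa1b (23.6, others 4.09 to 5.14). Replicate 4 was high in Gbp10 (9.21, others 7.02 to 7.23) and Gzmk (0.12, others 0.0396 to 0.0489). Hspa1b did not pass with all libraries (log2 difference 1.13, adjusted p = 0.0784 in limma) and passed without naive_GEMy replicate 3 (1.69, adjusted p = 0.00137).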

How the results depend on the processing

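Of the named genes 75 passed the threshold, and none changed direction in the 23 alternatives. Of 34 higher in naive_GEMy 23 passed in every alternative that tested them, the 2-fold minimum aside, and of 41 higher in tumor_untreated 28 did. Against 2335 genes in all (885 higher in tumor_untreated, 1450 in naive_GEMy), the 8 compared libraries alone gave 1498, with 804 higher in naive_GEMy. The hemoglobin covariate gave 475 (294 and 181), and 123 list members in place of 269. A 2-fold minimum gave 182 (146 and 36), 95 list members and 49 named genes. Median-of-ratios scaling gave 850 higher in naive_GEMy and moved the share of calls higher in tumor_untreated from 37.9 to 57.5%; the covariate gave 61.9%. Array weights gave 1396 higher in tumor_untreated. Leaving out 1 library gave 1543 to 3105 genes, 667 to 1169 higher in tumor_untreated and 837 to 1936 in naive_GEMy, with 221 to 314 list members and 68 to 80 named genes. The fewest came without naive_GEMy replicate 1 (1543) and the most without tumor_untreated replicate 1 (3105); without naive_GEMy replicate 2 it was 1574 and without tumor_untreated replicate 4 1606. The causes were not tested, beyond the fewer samples or the fold minimum that a setting sets itself. With the replicate number as a replicate block 2703 genes passed (1013 and 1690). Deviations of same-numbered libraries correlated at 0.0773, 0.0903, 0.0658 and 0.594, and tumor_untreated replicates 1 and 2 correlated best with other numbers, so the numbers were not taken to pair the samples. Limits are 4 libraries a group, a tumor group whose descriptions share a number, and the low counts behind values under 0.5 FPKM.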
